A study of Mus musculus with 10 samples.

Results

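Genes whose names begin with Kcn encode the pore-forming subunits of potassium channels and several of their auxiliary subunits. They were taken from the count table of mouse retina RNA by name, keeping protein-coding genes only, which gave 94 of the 35275 genes in the table. By role these were 40 voltage-gated alpha subunits (Kcna to Kcnd, Kcnf to Kcnh, Kcnq, Kcns and Kcnv), 12 auxiliary subunits (Kcnab, Kcne and Kcnip), 15 inward rectifiers (Kcnj), 14 two-pore channels (Kcnk), 12 calcium- and sodium-activated channels with their auxiliary subunits (Kcnm, Kcnn, Kcnt and Kcnu), and Kcnrg, a regulator of channel assembly. Members were chosen by name, without a cutoff on any measured value, although earlier results of these data were known.

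The retinas came from C57BL/6 mice that were 10 to 12 weeks old. Vigabatrin mice (5 libraries) received the drug at 140 mg/kg/day for 11 days from a subcutaneous osmotic pump, and 5 libraries were labelled vehicle, although their titles call them untreated. Vigabatrin is an antiepileptic drug that blocks GABA transaminase for good and so slows the breakdown of the transmitter GABA, and visual field loss is a known adverse effect in patients. Each library is called by its group and its title number. Whether every library is a separate animal is not stated in the labels. The p-values therefore set group differences against the spread between libraries, which need not be that between animals.

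Potassium channels let potassium leave or enter the cell and so set its resting potential, shape its spikes and clear potassium from the extracellular space. Voltage-gated channels open on depolarization, inward rectifiers pass current best near or below the resting potential, two-pore channels carry leak current, and a further set opens on intracellular calcium or sodium. In the retina, Kcnv2 subunits take part in a potassium current of photoreceptor inner segments, Müller glia buffer potassium through Kcnj10, and the pigment epithelium recycles potassium through Kcnj13.

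Total counts ranged from 36056135 (vehicle 2345) to 54052502 (vigabatrin 2429), and members took between 0.403% (vehicle 835) and 0.481% of each library. The 8 rod markers summed to between 52886 and 57869 CPM (the library's counts scaled to a common total) in vigabatrin libraries and between 54111 and 59122 CPM in vehicle libraries, so markers of the labelled tissue were abundant in every library. Markers of neighbouring tissue varied widely. The 17 lens markers, of which Lim2 had 0 counts, summed to between 4.09 and 16882 CPM in vigabatrin libraries and to between 32.1 and 16155 CPM in vehicle libraries. The lens sum was 16882 CPM in vigabatrin 2344 and 14685 CPM in vigabatrin 2429, and 16155 CPM in vehicle 835 and 10713 CPM in vehicle 1582, and these 4 libraries are called lens-rich. The 12 pigment epithelium markers, all detected, summed to between 17.0 and 758 CPM in vigabatrin libraries and to between 32.2 and 1691 CPM in vehicle libraries. In whole retina, fewer cells of a type and less RNA per cell cannot be told apart.

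The comparison asked which potassium channel transcripts differed after vigabatrin. Of the 94 genes, 81 had enough counts to be tested and 13 had too few, with 1 to 88 counts each in all 10 libraries together. The untested genes were Kcna7, Kcna10, Kcne1, Kcne3, Kcng3, Kcnj1, Kcnj15, Kcnk7, Kcnk15, Kcnk16, Kcnk18, Kcnmb3 and Kcnn4. Among the 81, 0 passed an adjusted p of 0.05 (edgeR quasi-likelihood test, Benjamini-Hochberg over 17435 genes), against 1 gene or 0.00574% of all tested genes. The smallest adjusted p of a member was 0.633, for Kcnip2. At an unadjusted p under 0.05 there were 5 members, 4 with a higher and 1 with a lower mean in vigabatrin libraries. That is 6.17% of the members, against 7.36% of all tested genes (3.68% higher and 3.69% lower), so the share lay near the background. In 0 of the 81 members were all 5 vigabatrin libraries on one side of all 5 vehicle libraries, against 1.48% of all tested genes (0.849% above and 0.631% below).

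Differences were small for most members. The median log2 fold change, vigabatrin over vehicle, was 0.02 over the 81 members and -0.00134 over all tested genes. The log2 fold change of single members lay within 0.1 of 0 for 44 members and beyond 0.5 for 3, which were Kcnj13, Kcnv1 and Kcne4, each under 1 CPM on average in both groups. The 95% interval of the fold change stayed inside 2-fold in both directions for 70 of the 81 members, inside 1.5-fold for 57 and inside 1.2-fold for 26. A higher mean in vigabatrin libraries was found for 49 members and a lower mean for 32, so 60.5% were higher. Of all tested genes 49.4% were higher and 50.6% lower. The title numbers fall into a low range, held by vehicle 832, 835, 1580 and 1582, and a high range from 2344 to 2429, held by all vigabatrin libraries and vehicle 2345. With this range as a term, 51.9% of members and 53.1% of all tested genes were higher. The group difference then rests on the single vehicle library in the high range, so group and range can hardly be told apart.

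**Figure D1:**
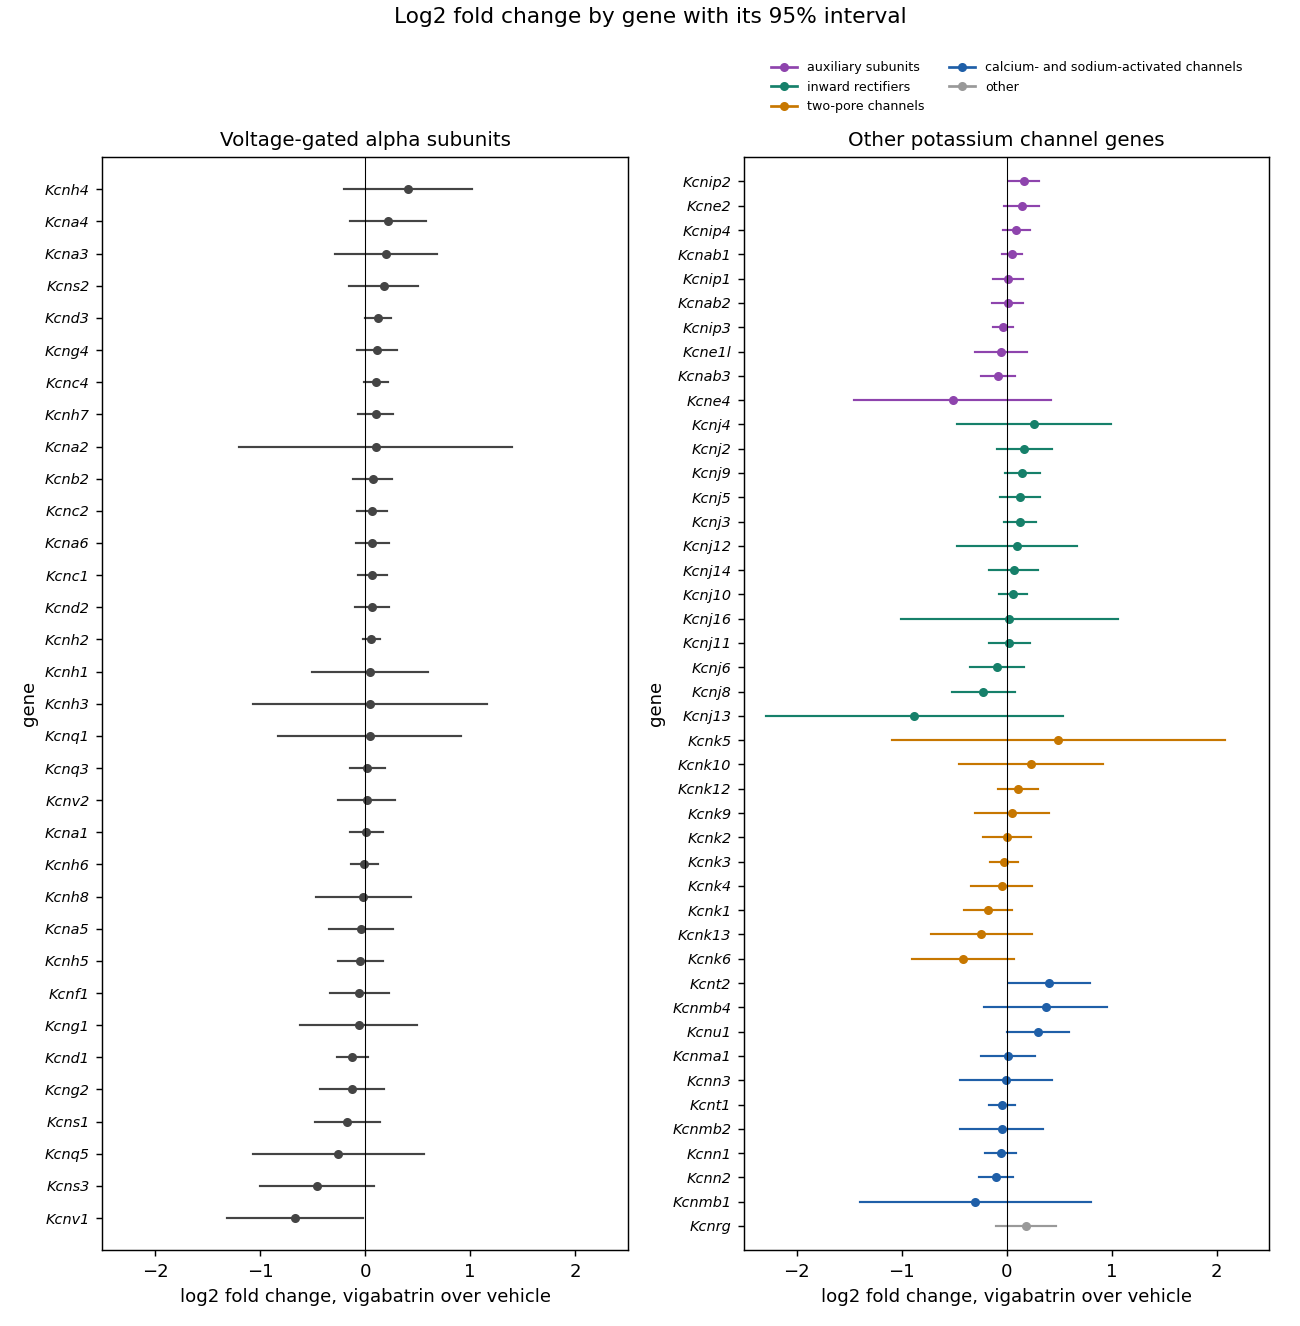
Log2 fold change, vigabatrin over vehicle, of 77 potassium channel genes (points), with 95% intervals from the edgeR fit across all genes (lines), by role. Most points lie close to 0, and the widest intervals, such as those of Kcnj13, Kcnk5 and Kcna2, belong to genes with few counts or a large spread between libraries.

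Levels were compared between genes as RPKM, that is CPM divided by the deposited gene length in kilobases. The summed level of all members was 1167 ± 38.5 RPKM in vigabatrin libraries and 1155 ± 74.8 RPKM in vehicle libraries (SD, n = 5 each). Voltage-gated alpha subunits made up 48.1% of this sum in vigabatrin libraries and 49.0% in vehicle libraries. Inward rectifiers made up 28.4% in vigabatrin libraries and 27.3% in vehicle libraries, and auxiliary subunits 17.7% in vigabatrin libraries and 17.6% in vehicle libraries. Two-pore channels (3.40% in vigabatrin and 3.61% in vehicle libraries) and calcium- and sodium-activated channels (2.29% in vigabatrin and 2.37% in vehicle libraries) were a small remainder. Of the 94 genes, 4 reached 100 RPKM in vehicle libraries, 17 lay from 10 up to 100, 34 from 1 up to 10, 24 from 0.1 up to 1, and 15 below 0.1 RPKM.

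Kcnj14, Kcnab2 and Kcnv2 were among the genes of highest level. Kcnj14, an inward rectifier, averaged 248 ± 7.73 RPKM in vigabatrin libraries and 237 ± 41.0 RPKM in vehicle libraries (SD, n = 5 each). Kcnab2, a cytoplasmic beta subunit, averaged 112 ± 9.38 RPKM in vigabatrin libraries and 112 ± 7.98 RPKM in vehicle libraries. Kcnv2, a modulatory alpha subunit that forms no channel by itself, averaged 103 ± 5.12 RPKM in vigabatrin libraries and 102 ± 20.3 RPKM in vehicle libraries, so it and Kcnab2 overlapped in range. Per length, Kcnv2 stood at 0.418 ± 0.022 of Kcnj14 in vigabatrin libraries and at 0.432 ± 0.0466 in vehicle libraries (SD, n = 5 each), and below it in all 10. Kcnj9 stood at 45.3 ± 1.37 RPKM in vigabatrin libraries and 40.9 ± 4.95 RPKM in vehicle libraries, below every library's value for these 3 genes.

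**Figure D2:**
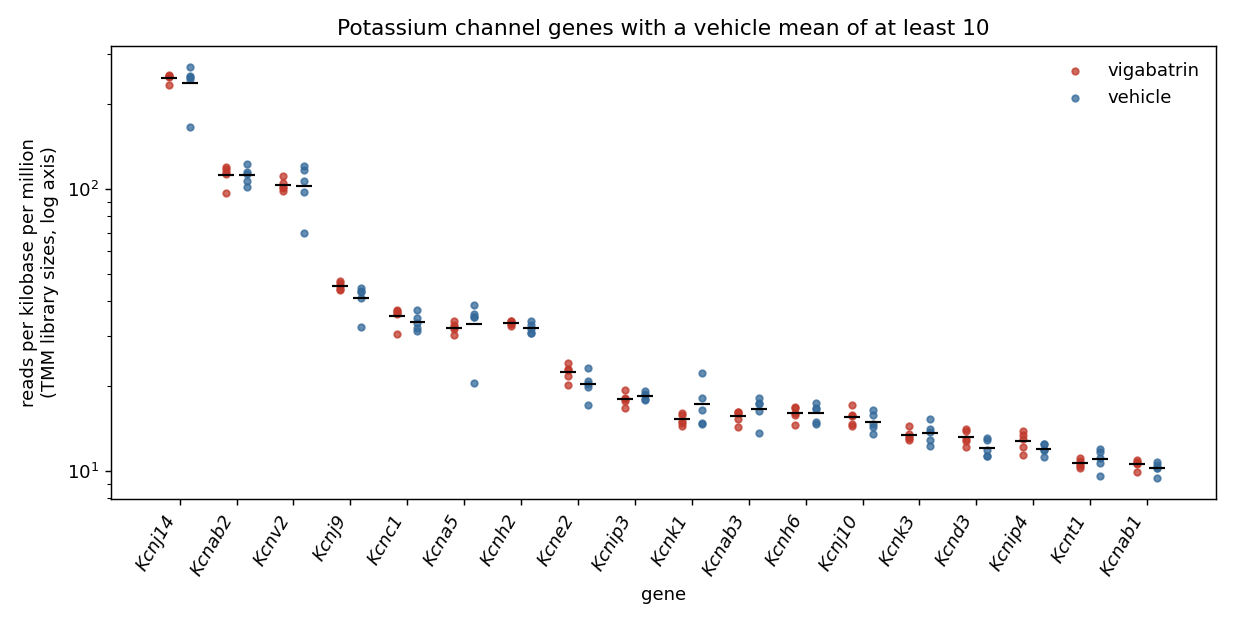
Level of 18 potassium channel genes with a vehicle mean of at least 10 RPKM, in RPKM on a log axis. Points are libraries, bars are group means, and the lowest vehicle point of Kcnj14, Kcnv2, Kcnj9 and Kcna5 is vehicle 835 each time.

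Among the voltage-gated alpha subunits, 37 of 40 were tested, 23 had a higher and 14 a lower mean in vigabatrin libraries, and the median log2 fold change was 0.04. Kcnv2 had 502, 517, 569, 537 and 515 CPM in vigabatrin 2344, 2347, 2349, 2428 and 2429, against 598, 356, 545, 499 and 616 CPM in vehicle 832, 835, 1580, 1582 and 2345, and further values by library are in this order. All vigabatrin values lay inside the vehicle range, whose low end was vehicle 835, and the log2 fold change was 0.01 ± 0.12 (standard error; adjusted p = 0.990).

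The Kcnc genes encode fast delayed rectifiers of rapidly firing neurons. Kcnc1, Kcnc2 and Kcnc4 had higher means in vigabatrin libraries, with log2 fold changes of 0.07, 0.07 and 0.10 and 0 past the threshold, although Kcnc1 and Kcnc2 had the opposite sign with the range of the title numbers as a term and Kcnc1 without the lens-rich libraries. Kcnc1 had 282, 238, 288, 286 and 280 CPM in vigabatrin libraries, against 271, 243, 259, 248 and 288 CPM in vehicle libraries. Vigabatrin 2347 was the lowest of all, and the remaining vigabatrin values lay within or just at the top of the vehicle range. Kcnc4 had 32.3, 30.7, 35.2, 30.4 and 31.1 CPM in vigabatrin libraries, against 30.5, 29.7, 30.5, 27.4 and 30.3 CPM in vehicle libraries. Vigabatrin 2428 lay just inside the vehicle range and the other 4 above it, and the log2 fold change was 0.10 ± 0.05 (standard error; adjusted p = 0.704). Kcnc1 stood at 35.4 ± 2.67 RPKM in vigabatrin libraries and 33.7 ± 2.31 RPKM in vehicle libraries. Kcnc4 stood at 10.6 ± 0.647 RPKM in vigabatrin libraries and 9.85 ± 0.437 RPKM in vehicle libraries, and Kcnc2 was lower, at 8.54 ± 0.609 RPKM in vigabatrin libraries and 8.14 ± 0.626 RPKM in vehicle libraries.

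The A-type channels of the Kcnd subfamily inactivate quickly and are modulated by the calcium-binding Kcnip proteins. Kcnd3 had 86.8, 91.1, 99.1, 101 and 92.9 CPM in vigabatrin libraries, against 93.2, 84.7, 81.1, 80.7 and 92.1 CPM in vehicle libraries. Vigabatrin 2349 and 2428 lay above every vehicle library and the other 3 inside the vehicle range, with a log2 fold change of 0.12 and a standard error of 0.06 (unadjusted p = 0.0472, adjusted p = 0.675). Kcnd1 had a lower mean in vigabatrin libraries, with a log2 fold change of -0.12 (adjusted p = 0.744), and Kcnd2 stood at 0.07 (adjusted p = 0.896). Kcnip2 had 12.3, 12.3, 12.9, 13.8 and 12.6 CPM in vigabatrin libraries, against 10.8, 11.0, 12.7, 10.9 and 11.5 CPM in vehicle libraries. Vehicle 1580 lay among the vigabatrin values and the other 4 vehicle libraries lay below all of them. The log2 fold change of Kcnip2 was 0.16 ± 0.07 (standard error), and its unadjusted p of 0.0322 was the smallest of any member (adjusted p = 0.633). Of the other Kcnip genes, Kcnip4 stood at 0.09 (adjusted p = 0.790), Kcnip1 at 0.01 (adjusted p = 0.980) and Kcnip3 at -0.04 on the log2 scale (adjusted p = 0.900).

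Kcnh2 and Kcna1 were alpha subunits with large counts and narrow intervals. Kcnh2, a slowly deactivating channel of the ether-a-go-go-related type, had 141 ± 2.5 CPM in vigabatrin libraries and 135 ± 5.77 CPM in vehicle libraries (SD, n = 5 each), with a log2 fold change of 0.06 and a 95% interval of -0.02 to 0.14. Kcna1, a low-threshold channel of axons and terminals, had 50.0 ± 3.41 CPM in vigabatrin libraries and 49.6 ± 4.65 CPM in vehicle libraries, with an interval of -0.14 to 0.17. Both intervals exclude a 1.2-fold difference in either direction. The electrically silent subunits Kcns3 and Kcnv1, which act only in assembly with other alpha subunits, had lower means in vigabatrin libraries. Kcnv1 had 0.202, 0.224, 0.250, 0.173 and 0.222 CPM in vigabatrin libraries, against 0.403, 0.233, 0.220, 0.571 and 0.276 CPM in vehicle libraries. Its vigabatrin values overlapped the low end of the vehicle values, and its log2 fold change of -0.67, with a standard error of 0.29, rested on few counts (unadjusted p = 0.0446, adjusted p = 0.666) and was -0.41 without vehicle 1582. Kcns3 had 0.808 ± 0.266 CPM in vigabatrin libraries and 1.11 ± 0.216 CPM in vehicle libraries (SD, n = 5 each; log2 fold change -0.46, adjusted p = 0.727). Kcns1, a further silent subunit, stood at -0.17 (adjusted p = 0.836). Kcnh4, of the ether-a-go-go-like type, stood at 0.41 (adjusted p = 0.793) with a mean of 0.266 CPM in vigabatrin libraries and 0.200 CPM in vehicle libraries.

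Of the auxiliary subunits, 10 of 12 were tested, 6 had a higher and 4 a lower mean in vigabatrin libraries, and the median log2 fold change was 0.01. Kcnab2 had 463, 452, 471, 441 and 378 CPM in vigabatrin libraries, against 449, 400, 442, 419 and 482 CPM in vehicle libraries. The groups overlapped, the lowest value being vigabatrin 2429 and the highest vehicle 2345, and its log2 fold change was 0.01 with a 95% interval of -0.14 to 0.16. Kcne2, a single-pass membrane subunit that modulates several channels, had 37.7 ± 2.55 CPM in vigabatrin libraries and 34.2 ± 3.66 CPM in vehicle libraries (SD, n = 5 each; log2 fold change 0.14, adjusted p = 0.727). It was the auxiliary subunit next in level per length after Kcnab2, at 22.3 RPKM in vigabatrin libraries and 20.2 RPKM in vehicle libraries, ahead of Kcnip3 at 18 RPKM in vigabatrin libraries and 18.4 RPKM in vehicle libraries. Kcnab3, another beta subunit, had a log2 fold change of -0.09 (adjusted p = 0.843). The neighbour of Kcne2 on chromosome 16, Kcne1, which starts 47871 bases beyond the end of Kcne2, was among the untested genes at 0.0512 RPKM in vigabatrin libraries and 0.0385 RPKM in vehicle libraries.

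Of the inward rectifiers, 13 of 15 were tested, 10 had a higher and 3 a lower mean in vigabatrin libraries, and the median log2 fold change was 0.06. Kcnj14 had 665, 675, 665, 661 and 622 CPM in vigabatrin libraries, against 663, 440, 721, 668 and 650 CPM in vehicle libraries. Apart from vehicle 835, at 440 CPM, all libraries lay between 622 and 721 CPM. The log2 fold change was 0.06 ± 0.11 (standard error; adjusted p = 0.933). Kcnj10, the main inward rectifier of Müller glia, had 79.1, 84.7, 92.8, 85.1 and 78.2 CPM in vigabatrin libraries, against 85.0, 79.1, 77.4, 73.1 and 88.4 CPM in vehicle libraries. The groups overlapped, with a log2 fold change of 0.06 and a 95% interval of -0.08 to 0.19, which excludes a 1.2-fold difference. Kcnj2, a strong inward rectifier, stood at a log2 fold change of 0.17 (adjusted p = 0.797), and Kcnj8, a pore subunit of ATP-sensitive channels known from pericytes and smooth muscle, at -0.23 (adjusted p = 0.763). Kcnj8 was highest in vehicle 835, at 4.39 CPM, where the 5 pericyte and smooth muscle markers also had their highest sum, 369 CPM, within a range of 108 to 294 CPM in vigabatrin libraries and 98.0 to 369 CPM in vehicle libraries. In vigabatrin 2344, where the marker sum was 294 CPM, Kcnj8 had 2.74 CPM, below its mean of 2.82 CPM in vigabatrin libraries. Most of the sum in vehicle 835 came from Acta2 (101 CPM) and Myh11 (149 CPM). Single markers differed, since Acta2, Myh11 and Rgs5 were highest in vehicle 835, and Pdgfrb and Cspg4 in vigabatrin 2344. The part of those markers in the value of Kcnj8 was not tested.

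Kcnj3, Kcnj5, Kcnj6 and Kcnj9 encode the subunits of channels opened by G proteins, which GABA-B receptors and other receptors can activate. Kcnj9 had 144, 154, 151, 148 and 144 CPM in vigabatrin libraries, against 141, 106, 146, 135 and 142 CPM in vehicle libraries. The vigabatrin values lay at or above the upper part of the vehicle range and vehicle 835 was lowest, with a log2 fold change of 0.15 and a standard error of 0.08 (adjusted p = 0.717). Without vehicle 835 the log2 fold change was 0.07. Kcnj9 was far above its partners per length, at 17.0 ± 0.98 times the level of Kcnj3 in vigabatrin libraries and 16.7 ± 1.81 times in vehicle libraries (SD, n = 5 each). Kcnj5 stood at 3.93 RPKM in vigabatrin libraries and 3.60 RPKM in vehicle libraries, Kcnj3 at 2.67 RPKM in vigabatrin libraries and 2.45 RPKM in vehicle libraries, and Kcnj6 at 1.65 RPKM in vigabatrin libraries and 1.76 RPKM in vehicle libraries. On the log2 scale Kcnj3 differed by 0.12 (adjusted p = 0.741), Kcnj5 by 0.13 (adjusted p = 0.793) and Kcnj6 by -0.09 (adjusted p = 0.915), so 0 of the 4 passed the threshold. Kcnj9 and Kcnj10 are neighbours on chromosome 1, 11946 bases apart, and Kcnj9 was above Kcnj10 per length in all 10 libraries, by 2.93 ± 0.146 times in vigabatrin libraries and 2.75 ± 0.360 times in vehicle libraries.

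Of the two-pore channels, 10 of 14 were tested, 5 had a higher and 5 a lower mean in vigabatrin libraries, and the median log2 fold change was -0.01. Kcnk1, a weakly rectifying leak channel, led the group per length at 15.2 ± 0.694 RPKM in vigabatrin libraries and 17.2 ± 3.10 RPKM in vehicle libraries, followed by the acid-sensitive channel Kcnk3 at 13.4 ± 0.615 RPKM in vigabatrin libraries and 13.6 ± 1.16 RPKM in vehicle libraries (SD, n = 5 each). Kcnk1 had 34.4, 36.9, 34.0, 33.1 and 36.3 CPM in vigabatrin libraries, against 34.0, 51.0, 37.8, 41.8 and 33.6 CPM in vehicle libraries. The 3 highest libraries were vehicle libraries, led by vehicle 835, while vehicle 832 and 2345 lay among the vigabatrin values (log2 fold change -0.18, standard error 0.10, adjusted p = 0.744, and -0.08 without vehicle 835). Kcnk6, a relative of Kcnk1, had 0.545 ± 0.0655 CPM in vigabatrin libraries and 0.724 ± 0.233 CPM in vehicle libraries (log2 fold change -0.42, adjusted p = 0.724). Kcnk12 stood at 0.11 (adjusted p = 0.825) and Kcnk13 at -0.24 (adjusted p = 0.858) on the log2 scale.

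Of the calcium- and sodium-activated group, 10 of 12 were tested, 4 had a higher and 6 a lower mean in vigabatrin libraries, and the median log2 fold change was -0.03. Kcnma1, the pore of the large-conductance calcium-activated channel, had 26.5, 26.2, 28.4, 32.4 and 28.4 CPM in vigabatrin libraries, against 36.3, 21.5, 28.3, 26.4 and 28.5 CPM in vehicle libraries. Both the highest and the lowest value were vehicle libraries, and the log2 fold change was 0.01 ± 0.12 (standard error; adjusted p = 0.994). The 3 tested small-conductance channels, Kcnn1, Kcnn2 and Kcnn3, had log2 fold changes of -0.06, -0.10 and -0.01, with adjusted p values of 0.900, 0.808 and 0.999. Kcnt1, a sodium-activated channel, was highest in the group per length at 10.6 ± 0.335 RPKM in vigabatrin libraries and 11.0 ± 0.922 RPKM in vehicle libraries (SD, n = 5 each). Its relative Kcnt2 had 0.988, 1.42, 1.21, 1.15 and 0.775 CPM in vigabatrin libraries, against 0.998, 0.827, 0.858, 0.703 and 0.773 CPM in vehicle libraries. Vigabatrin 2347, 2349 and 2428 lay above all vehicle libraries, while vigabatrin 2344 and 2429 lay inside the vehicle range (log2 fold change 0.41, standard error 0.18, unadjusted p = 0.0415, adjusted p = 0.663). Kcnu1, known for its channel in sperm, had 1.80, 1.69, 1.94, 2.31 and 1.75 CPM in vigabatrin libraries, against 1.44, 1.68, 1.63, 1.76 and 1.21 CPM in vehicle libraries. Its groups overlapped only where vehicle 1582 lay above vigabatrin 2347 and 2429 (log2 fold change 0.30, standard error 0.13, unadjusted p = 0.0485, adjusted p = 0.676). Kcnrg stood apart from the channel subunits and had a log2 fold change of 0.18 (adjusted p = 0.808).

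Libraries of the same group also differed from each other. Over the 63 tested members with a mean of at least 1 CPM, the highest library was a median of 1.37 times the lowest, with 38 members under 1.5 times and 8 over 2 times. Vehicle 835 was the lowest vehicle library for 40.7% of the 81 tested members and the highest for 23.5%, against 34.1% and 33.0% of all tested genes. Kcna5, a delayed rectifier, had 93.3, 85.6, 96.2, 91.4 and 89.9 CPM in vigabatrin libraries, against 109, 57.9, 102, 99.1 and 99.6 CPM in vehicle libraries. The other 4 vehicle libraries all lay above all 5 vigabatrin libraries. Leaving out vehicle 835, groups did not overlap for 2 of the tested members, against 3.03% of all genes tested in that setting. Kcnj14, Kcnv2 and Kcnj9 were lowest in the same library, and the two-pore channels Kcnk1 and Kcnk13 were highest in it. Vehicle 835 is one of the lens-rich libraries and had the highest pigment epithelium markers, at 1691 CPM. In a fit with the group, the log2 lens level and the log2 pigment epithelium level as terms, neither tissue term passed for Kcna5, Kcnj14, Kcnj9, Kcnv2, Kcnk1 or Kcnk13, with an adjusted p of 0.284 (Kcnv2) to 0.56 (Kcnj14) for the pigment epithelium and of 0.93 (Kcnj9) or more for the lens (edgeR quasi-likelihood test).

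**Figure D3:**
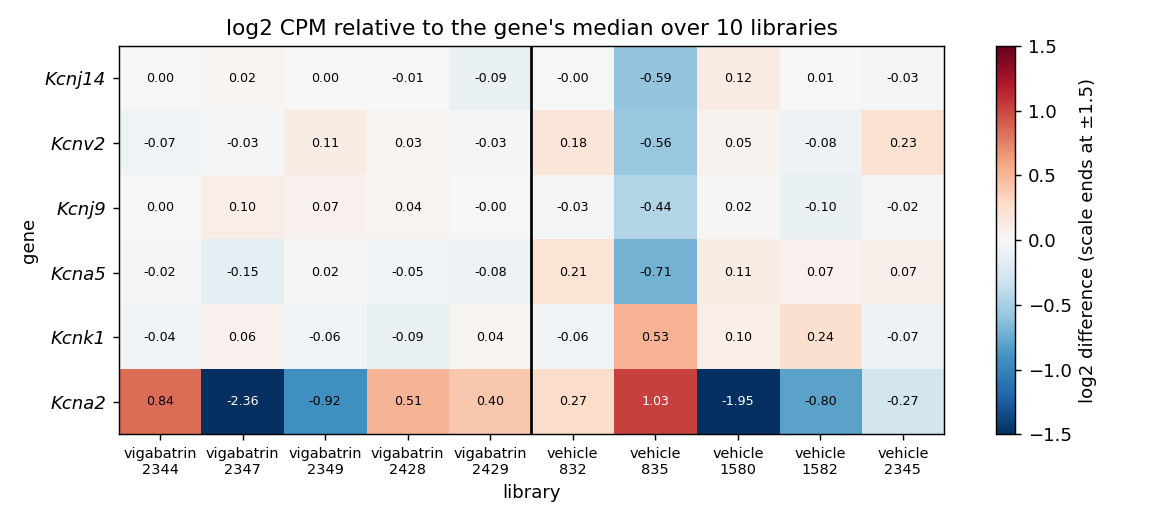
Log2 CPM of 6 potassium channel genes in each library, relative to the gene's median over the 10 libraries (colour and printed value). The vehicle 835 column is low for Kcnj14, Kcnv2, Kcnj9 and Kcna5 and high for Kcnk1, and the values of Kcna2 spread widely in both groups.

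Kcna2, a low-threshold axonal channel, varied most among members with a mean CPM above 1, by 10.5 times between its lowest and highest library. It had 5.50, 0.598, 1.62, 4.37 and 4.06 CPM in vigabatrin libraries, against 3.71, 6.26, 0.792, 1.76 and 2.54 CPM in vehicle libraries. The 4 lowest were vigabatrin 2347, vehicle 1580, vigabatrin 2349 and vehicle 1582. Both groups contributed to both ends, with a log2 fold change of 0.10 and a standard error of 0.59 (adjusted p = 0.987).

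Kcnh1, a channel of the ether-a-go-go type, and Kcnj12, a strong inward rectifier, separated the lens-rich libraries from the others. Kcnh1 had 27.0, 15.1, 15.9, 14.3 and 26.7 CPM in vigabatrin libraries, against 15.2, 26.8, 13.4, 24.9 and 15.3 CPM in vehicle libraries. Kcnj12 had 24.0, 12.1, 12.4, 12.7 and 22.7 CPM in vigabatrin libraries, against 11.8, 22.3, 12.2, 19.8 and 12.6 CPM in vehicle libraries. In both genes the 4 highest libraries were the lens-rich ones, 2 in each group, with a clear gap to the other 6. The summed 6 cornea markers were also highest in these 4 libraries, at 25.8 to 34.1 CPM, followed by vehicle 832 at 19.6 CPM. The part of cornea in the values of both genes was not tested. In the fit with both tissue levels as terms, the lens term passed an adjusted p of 0.05 for 2 of the 81 members, Kcnh1 (adjusted p = 0.00319) and Kcnj12 (adjusted p = 0.00659; edgeR quasi-likelihood test), against 0.9% of all tested genes. The fitted slope of log2 CPM per doubling of the lens level was 0.07 for Kcnh1 and 0.07 for Kcnj12. Per doubling of the pigment epithelium level it was 0.094 for Kcnh1 and 0.087 for Kcnj12. A single lens slope does not describe all libraries. Vigabatrin 2347 and 2349 had lens sums of 4.09 and 988 CPM, with Kcnh1 at 15.1 and 15.9 CPM and Kcnj12 at 12.1 and 12.4 CPM.

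In the same fit the pigment epithelium term passed, in the direction of higher levels, for 5 of the 81 members, against 2.84% of all tested genes, among them Kcne4, Kcnh1, Kcnj12 and Kcnj13. In the direction of lower levels it passed for 0 members, against 0.0918% of all tested genes. Kcnj13, known as the inward rectifier of the pigment epithelium, had 0.831, 0.573, 0.0385, 0.281 and 0.351 CPM in vigabatrin libraries, against 0.557, 1.82, 0.396, 0.725 and 0.221 CPM in vehicle libraries. It was highest in vehicle 835 and lowest in vigabatrin 2349, which were also the highest and the lowest library in summed pigment epithelium markers. Single markers ranked the libraries differently, although Dct and Rpe65 were both highest in vehicle 835. In vigabatrin 2344 the melanin gene Dct had 343 CPM and Rpe65 0.404 CPM, its lowest value. In vehicle 832 Dct had 29.1 CPM and Rpe65 16.2 CPM. The sum, and the fit built on it, therefore do not stand for each marker. Kcnj13 showed the lowest log2 fold change of all tested members, -0.88 with a standard error of 0.64 (adjusted p = 0.807), which was -0.24 without vehicle 835 and -1.30 without vigabatrin 2344. Its exons share 623 bases with those of Gigyf2 on the opposite strand, so its few reads are uncertain as to gene. Kcnq5, an M-current subunit, had 1.98, 1.72, 1.31, 1.40 and 1.48 CPM in vigabatrin libraries, against 1.19, 4.09, 0.880, 2 and 1.21 CPM in vehicle libraries. Its 2 highest libraries, vehicle 835 and vehicle 1582, were among the 3 highest in summed pigment epithelium markers (log2 fold change -0.26, standard error 0.37, adjusted p = 0.923). The pigment epithelium term did not pass for Kcnq5 (adjusted p = 0.131, edgeR quasi-likelihood test). Pigment epithelium markers had a lower mean in vigabatrin libraries for 11 of 12 genes, and their part in the values of Kcnj13, Kcnq5 and Kcne4 was not tested beyond this fit.

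**Figure D4:**
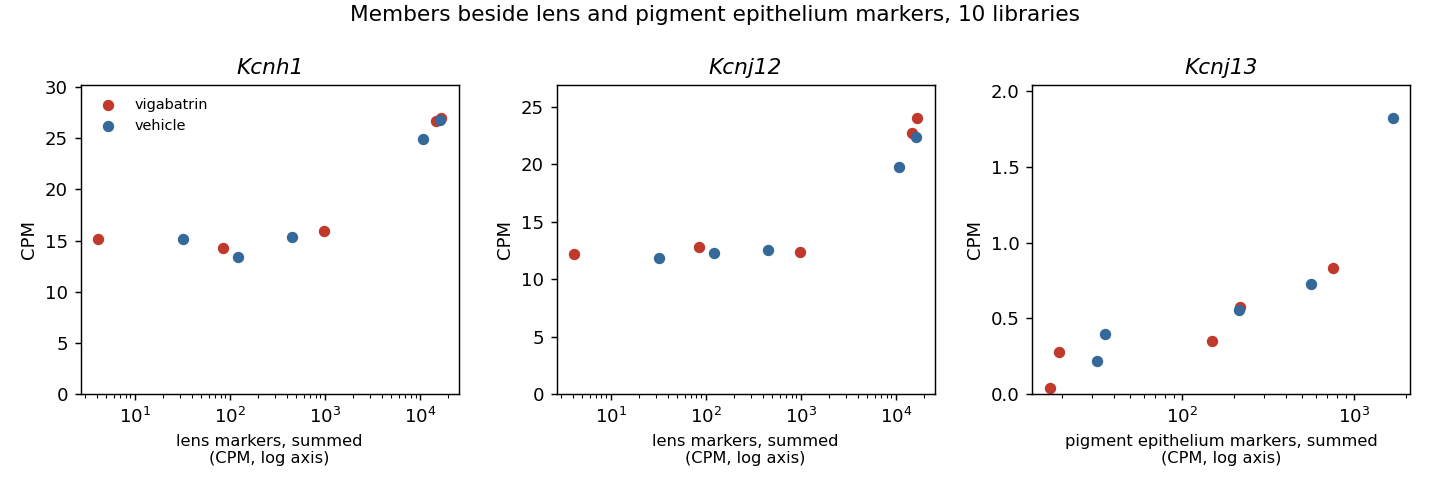
CPM (linear axis) of Kcnh1 and Kcnj12 against summed lens markers, and of Kcnj13 against summed pigment epithelium markers (marker sums on a log axis), with 1 point per library. Kcnh1 sits between 24.9 and 27.0 CPM and Kcnj12 between 19.8 and 24.0 CPM in the 4 lens-rich libraries, above the other 6 libraries in both genes, and vehicle 835 is the top point for Kcnj13.

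Promoter sequences, from 250 bases before to 50 bases after the annotated start, were looked up in RefSeq (build GRCm38.p6) for the genes that moved with a library. Those of Kcnj9 and Kcna5, which were low in vehicle 835, and of Kcnh1 and Kcnj12, which were high in the lens-rich libraries, are given 5′ to 3′ on the gene's strand. For Kcnj14 and Kcnv2, which were also low in vehicle 835, no promoter entry was found, so their promoters were not searched. Capitals mark a match to TAATCC, the core of the sites bound by the photoreceptor factor CRX, searched on both strands.
Kcnj9, chr1:172329273-172329572, minus strand: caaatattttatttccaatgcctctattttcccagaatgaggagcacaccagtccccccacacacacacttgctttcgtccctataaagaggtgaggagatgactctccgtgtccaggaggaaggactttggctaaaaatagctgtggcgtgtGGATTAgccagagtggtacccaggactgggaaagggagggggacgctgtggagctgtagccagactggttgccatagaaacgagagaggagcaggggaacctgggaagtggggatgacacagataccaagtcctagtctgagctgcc
Kcna5, chr6:126535506-126535805, minus strand: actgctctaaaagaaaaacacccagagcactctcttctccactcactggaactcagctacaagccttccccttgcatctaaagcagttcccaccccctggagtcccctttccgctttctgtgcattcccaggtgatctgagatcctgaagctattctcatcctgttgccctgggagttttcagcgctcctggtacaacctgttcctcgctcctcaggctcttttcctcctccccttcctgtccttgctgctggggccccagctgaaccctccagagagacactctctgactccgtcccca
Kcnh1, chr1:192190527-192190826, plus strand: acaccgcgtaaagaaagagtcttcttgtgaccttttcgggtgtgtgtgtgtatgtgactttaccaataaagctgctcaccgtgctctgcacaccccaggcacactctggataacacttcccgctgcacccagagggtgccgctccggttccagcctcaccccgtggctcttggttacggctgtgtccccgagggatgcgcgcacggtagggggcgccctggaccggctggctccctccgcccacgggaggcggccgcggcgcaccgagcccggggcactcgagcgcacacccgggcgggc
Kcnj12, chr11:61065554-61065853, plus strand: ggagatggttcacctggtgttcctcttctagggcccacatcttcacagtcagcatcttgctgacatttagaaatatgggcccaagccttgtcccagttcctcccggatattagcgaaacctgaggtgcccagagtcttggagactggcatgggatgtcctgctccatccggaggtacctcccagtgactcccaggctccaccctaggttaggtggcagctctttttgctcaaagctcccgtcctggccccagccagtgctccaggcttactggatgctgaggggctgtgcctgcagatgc
The Kcnj9 window holds 1 match, which reads GGATTA on the gene's strand and begins 97 bases before the start site, and the other 3 windows hold 0. In the deposited coordinates Kcna5 (minus strand) reaches to base 126698192 and Kcnj12 (plus strand) begins at base 61022564. The windows of these genes therefore lie well inside the deposited genes, and no window at those outer ends was searched. RefSeq promoters were matched for 69 of the 94 members, with 94 promoters in all, of which 3 (3.19%) hold the motif, against 7.06% of 32851 promoters in the table. The other members with a match were Kcng4 and Kcnrg. A match is a description of letters and says nothing of binding.

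Other genes of the same pathways were read from lists. Among 13 tested channel partners, 9 had a higher and 4 a lower mean in vigabatrin libraries with 0 past the threshold. They include Dpp6, an auxiliary subunit of A-type channels, with a log2 fold change of 0.10 (adjusted p = 0.677), and Cntnap2, which clusters channels along axons, with 0.08 (adjusted p = 0.682). Of the 8 sodium-potassium pump genes, 1 had a higher and 7 a lower mean, with 0 past the threshold. The beta subunit Atp1b1 stood at -0.04 (adjusted p = 0.894). Of the 4 hyperpolarization-activated channels, 3 had a higher and 1 a lower mean, with Hcn3 at 0.12 (adjusted p = 0.830). Among 11 genes of GABA-B receptor signalling, 9 had a higher and 2 a lower mean, again with 0 past the threshold. Kctd12, an auxiliary subunit of GABA-B receptors, averaged 4.75 CPM in vigabatrin libraries and 5.41 CPM in vehicle libraries, and its groups did not overlap (log2 fold change -0.19, adjusted p = 0.637), against 1.48% of all tested genes. Kctd16, another such subunit, stood at 0.25 (adjusted p = 0.706). The receptor gene Gabbr1 differed by 0.02 (adjusted p = 0.930) and Gabbr2 by 0.06 (adjusted p = 0.804).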

How the data were processed

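Retina RNA of 10 libraries was analysed, 5 vigabatrin and 5 vehicle, with groups taken from the labels' treatment field. The deposited table holds unnormalized read counts for each gene, and the submitters' processing notes list HTSeq 0.6.1, DESeq2, edgeR 3.16.5 and the build mm10. Per the labels' protocols, RNA was extracted with Qiazol from frozen retinas. The strand setting, the aligner and the release of the annotation were not given in the sources used here. Reads from overlapping genes on opposite strands therefore may not have been told apart. In GENCODE M21, 28 members share exon bases with another gene, 5 of them with a protein-coding gene (Kcnh3, Kcnh7, Kcnip4, Kcnj13 and Kcnk4). The table held 1 further library column, not used here, and 5 Kcn-named genes that are not protein coding were left out.

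In R 4.3.3, edgeR 4.0.16 was run on limma 3.58.1: filterByExpr removed low genes, TMM scaled the libraries, and the quasi-likelihood test compared the groups with no further term. P-values were adjusted by Benjamini-Hochberg over 17435 genes. CPM values use the TMM library sizes. Totals of 36056135 to 54052502 counts led to standard errors of log2 fold changes with a median of 0.09 over the tested genes. The test was tried on simulated counts first. A further fit added the log2 summed levels of lens and of pigment epithelium markers as terms.

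The members, lists and rules were chosen with earlier results of these data known. Genes named are the 12 of smallest p in each direction, 13 genes with known retinal roles, the 3 of highest level in each role, and 2 per pathway list. A few genes picked by the rules are left unreported here, and counts over members include them. Kcnj12, Kcnh1, Kcnq5, Kcna2 and Kcna5, and further members mentioned for their subfamily or library pattern, were added after their values were seen. Alternatives covered normalization, filters, DESeq2 1.42.0, limma-voom, title number range, tissue levels and leaving out libraries.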

Additional observations from a re-analysis of the deposited data

Results flagged for a closer look

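In 9 of 86 groups of 5 libraries examined, the CPM of a named gene had 1 library standing apart from the other 4 by Dixon's criterion at 95%. Chance gives about 1 in 20 groups, but some genes, Kcna5 among them, were named after their values were seen, so the count of 9 is not compared with chance.

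Vehicle 835 accounted for 4 of the 9. Kcna5 had 57.9 CPM there, against 99.1 to 109 CPM in the other vehicle libraries. Kcnj14 had 440.1 CPM, against 649.6 to 721 CPM. Kcnj9 had 105.8 CPM, against 134.6 to 145.6 CPM. Kcnk13 had 1.10 CPM, against 0.552 to 0.659 CPM. Thus 3 genes were low in this library and 1 was high.

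The other 5 lay in different libraries. Kcnc1 had 237.9 CPM in vigabatrin 2347, against 279.9 to 287.5 CPM in the other vigabatrin libraries. Kcnc2 had 46.3 CPM in vigabatrin 2344, against 53.6 to 55.5 CPM, and Kcnj14 had 622 CPM in vigabatrin 2429, against 660.6 to 675 CPM. Kcnc4 had 27.4 CPM in vehicle 1582, against 29.7 to 30.5 CPM in the other vehicle libraries, and Kcns3 had 0.726 CPM in vehicle 1580, against 1.17 to 1.24 CPM.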

How the results depend on the processing

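The number of potassium channel genes past the threshold was 0 under each of the 10 alternatives and each of the 10 settings that leave out 1 library. The median log2 fold change of the members stayed between 0.009 and 0.039 when libraries were left out, and between 0.010 and 0.05 under the other alternatives. Over all tested genes the number past the threshold was 87 with DESeq2 and 3 with limma-voom. It was 0 with library size scaling, no filter, a term for title number range, tissue levels as terms, the 4 lens-rich libraries left out or the length trend removed, and 0 to 39 when 1 library was left out, the highest without vehicle 2345. Groups did not overlap for 1 of 81 members with library size scaling, against 1.39% of all tested genes. When 1 library was left out, this held for 0 to 3 members and for 2.09% to 4.85% of all tested genes. The highest member count was without vehicle 1580, at 3 of 83 members against 2.13% of all tested genes. Without the lens-rich libraries, where 3 face 3, groups did not overlap for 14 of 81 members, against 13.6% of all tested genes.

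Of the 43 potassium channel genes followed singly, 0 passed the threshold in any setting run, and 59 values, counted over genes and settings, had the opposite sign. The cause was not tested. The pathway genes were not followed under the alternatives. When the title number range was a term, which leaves vehicle 2345 alone to be set against the vigabatrin libraries, the log2 fold change had the opposite sign for Kcnab2 (-0.128), Kcnc1 (-0.0683), Kcnc2 (-0.00332), Kcne4 (0.616), Kcnh2 (-0.0201), Kcnj10 (-0.0745), Kcnj13 (0.876), Kcnj8 (0.0156), Kcnk1 (0.0553), Kcnk13 (0.119), Kcnk6 (0.0498), Kcnma1 (-0.0042), Kcnq5 (0.374), Kcns1 (0.127) and Kcnv2 (-0.223). Without the lens-rich libraries this was so for Kcna2 (-0.094), Kcnab2 (-0.00896), Kcnc1 (-0.0109), Kcne4 (0.0566), Kcnj14 (-0.024), Kcnj8 (0.0306), Kcnk13 (0.15), Kcnma1 (-0.0978), Kcnq5 (0.429) and Kcnv2 (-0.115). With limma-voom it was so for Kcnab2 (-0.0278), Kcnj14 (-0.0189), Kcnma1 (-0.0631), Kcnq5 (0.20) and Kcnv2 (-0.0642), and with tissue levels as terms for Kcnab2 (-0.00588), Kcnma1 (-0.0194), Kcnq5 (0.106) and Kcnv2 (-0.0259). Leaving out 1 library gave ranges on both sides of 0 for Kcna2 (-0.175 to 0.553), Kcna5 (-0.169 to 0.0207), Kcnab2 (-0.0222 to 0.0573), Kcnh1 (-0.0872 to 0.202), Kcnj12 (-0.0686 to 0.254), Kcnj14 (-0.0393 to 0.118), Kcnk3 (-0.062 to 0.0169), Kcnma1 (-0.0743 to 0.112), Kcnq5 (-0.437 to 0.252) and Kcnv2 (-0.0955 to 0.0798).

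Without vehicle 835 the log2 fold change moved closer to 0, with the same sign, for Kcne4 (-0.09), Kcnk13 (-0.03), Kcnj8 (-0.10), Kcnk6 (-0.25), Kcnj2 (0.08), Kcnj5 (0.06) and Kcne2 (0.09), among others. It moved further from 0, with the same sign, for Kcna2 (0.55), Kcnj12 (0.25), Kcnh1 (0.20), Kcna5 (-0.17), Kcnab3 (-0.15), Kcnt1 (-0.09) and Kcnk3 (-0.06).

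No paired analysis was possible because the groups share no replicate numbers in the labels. Genes under 1 CPM and those in lens or pigment epithelium are limited by counts and by tissue differences between libraries. The labels do not state the strand setting, and with 5 libraries a group most members were bounded to 1.5-fold or less, not shown to be equal.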
